A study of Mus musculus with 6 samples.

Results

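The 9 genes described here sense sterols, take part in taking them up, or export them: Srebf1, Srebf2, Scap, Insig1, Insig2, Stard4, Mylip, Abca1 and Abcg1. They were taken by symbol from 24421 genes in read counts of the sciatic nerve of mice, which serves the hind leg, and all 9 passed the filter on low counts that left 14789 genes for testing. The nerve was sampled in 3 libraries labelled YAP/TAZ-DBL-cKO and in 3 labelled YAP/TAZ-WT, whose mice the design text calls wild-type controls. Below, cKO and WT stand for libraries so labelled. YAP and TAZ are co-activators of transcription, encoded by Yap1 and Wwtr1. The labels do not spell out cKO or DBL. They name neither strain nor age, neither the driver nor the extent of a deletion, and do not say whether nerves were pooled. By its title, the study asked what YAP and TAZ do in the myelination of peripheral nerve.

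Cells read their cholesterol in the endoplasmic reticulum. SCAP escorts the membrane-bound factors SREBP1 and SREBP2, encoded by Srebf1 and Srebf2, to the Golgi, where proteases release their active parts. When sterols are plentiful, INSIG proteins hold SCAP back and the genes of sterol synthesis and uptake go quiet. The liver X receptors (LXR) work in the opposite direction: oxysterols activate them, and they raise genes of sterol export. Myelinating Schwann cells are known for making much of the cholesterol of their myelin themselves. By textbook role the 9 genes fall into SREBP-driven (Insig1, Stard4, Srebf2), LXR-driven (Abca1, Abcg1, Mylip), driven by both (Srebf1) and driven by neither (Scap, Insig2).

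Gene counts came to between 24651262 and 47044158 a library, and each WT library was deeper than each cKO library. Neither targeted gene checks the labels. Yap1 lay at 102.6 to 108.8 CPM, the reads of a gene per 1e6 reads of the library scaled by TMM factors, in cKO and 120.4 to 123.7 CPM in WT (log2 fold change -0.20 ± 0.08, SE, n = 3 per group, edgeR adjusted p = 0.145), and Wwtr1 was higher in cKO (0.40 ± 0.09, edgeR adjusted p = 0.0208), so every direction below rests on the labels. Xist, made from an inactive X chromosome, ranged from 133.9 to 258 CPM, and Ddx3y, a gene of the Y chromosome, from 8.93 to 47.96 CPM, so that each library held reads of both.

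The SREBP-driven genes fell in cKO, and no LXR-driven gene passed the test. Of the 9 genes, 3 were called lower (edgeR adjusted p under 0.05), against 6.17% of all tested genes, and 0 were called higher, against 4.77%. Mylip and Abcg1 passed 0.05 only before adjustment. DESeq2 called 1 gene higher, Mylip, and limma-voom called 0 higher. The groups did not overlap for 4 of the 9 genes, against 31.1% of all genes tested. In nerve as a whole, fewer cells of a type and less RNA per cell cannot be told apart.

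**Figure D1:**
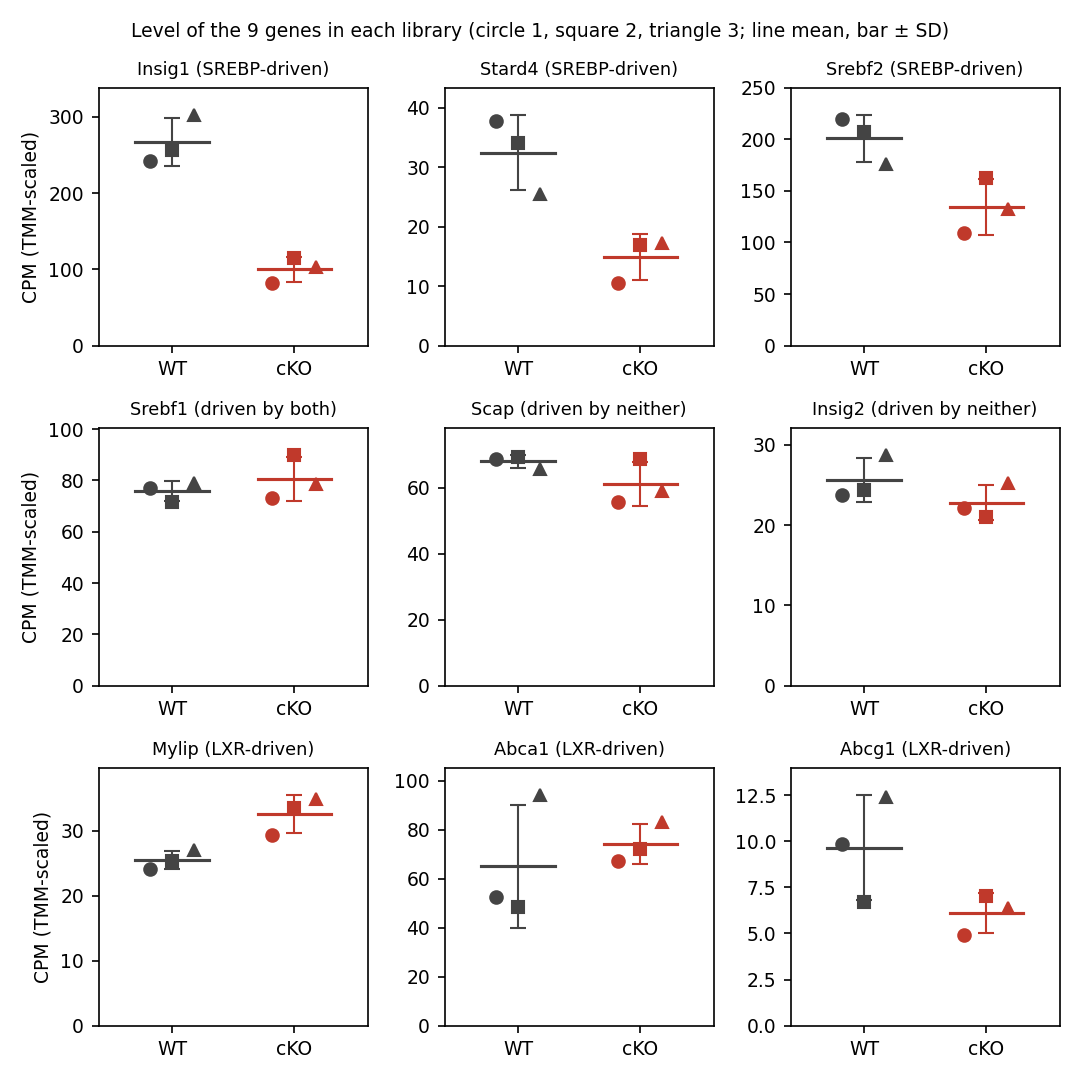
Level of each gene in every library, in CPM scaled by TMM factors on a linear axis from 0; circles, squares and triangles are libraries 1, 2 and 3, lines are means and bars ± SD (n = 3). The cKO libraries lie below all WT libraries for Insig1, Stard4 and Srebf2 and above them for Mylip, while the groups overlap for the other 5 genes.

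Stretches before the start sites of 2 genes that fell and of 2 LXR-driven genes are given so that their letters can be compared. They come from RefSeq's GRCm38.p6 table, which holds promoters of 7 of the 9 genes (not of Stard4 and Abcg1), each running 5′ to 3′ on the gene's strand and ending before the annotated start. Capitals mark the NF-Y box CCAAT or its reverse complement ATTGG, the E-box CACGTG and TCACNCCA.
Insig1 chr5:28071162-28071362 plus strand: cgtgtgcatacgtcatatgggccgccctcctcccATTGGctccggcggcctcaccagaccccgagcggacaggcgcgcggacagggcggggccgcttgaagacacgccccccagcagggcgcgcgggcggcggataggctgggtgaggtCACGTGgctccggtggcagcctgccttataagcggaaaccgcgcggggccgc
Srebf2 chr15:82147019-82147180 plus strand: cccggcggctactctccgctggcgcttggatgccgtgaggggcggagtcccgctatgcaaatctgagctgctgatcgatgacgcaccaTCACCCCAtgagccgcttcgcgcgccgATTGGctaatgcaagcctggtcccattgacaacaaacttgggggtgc
Abca1 chr4:53159896-53160145 minus strand: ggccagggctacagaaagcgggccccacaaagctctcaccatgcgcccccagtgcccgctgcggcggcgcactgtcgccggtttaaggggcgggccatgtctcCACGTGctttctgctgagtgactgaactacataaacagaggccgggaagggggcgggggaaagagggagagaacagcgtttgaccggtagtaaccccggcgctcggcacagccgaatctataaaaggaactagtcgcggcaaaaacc
Mylip chr13:45389492-45389741 plus strand: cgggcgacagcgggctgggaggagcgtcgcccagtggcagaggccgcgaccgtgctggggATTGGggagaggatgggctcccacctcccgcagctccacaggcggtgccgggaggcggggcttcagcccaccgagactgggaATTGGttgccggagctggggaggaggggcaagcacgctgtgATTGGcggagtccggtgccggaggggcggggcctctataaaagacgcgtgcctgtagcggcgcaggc

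The sterol regulatory core TCACNCCAC, searched on both strands of 250 bases before to 50 after each start, was in 0 of the 12 windows of the 7 genes (some have several starts) and in 1.24% of all 32851 promoters of that length. Without its last base (TCACNCCA, a search added after the sequences were read, which contains the former), it stood in 1 of the 12 windows, that of Srebf2, and in 4.36% of all promoters. The NF-Y box, a known partner site of SREBP, was in 6 of the 12 windows of the 7 genes (once in those of Insig1 and Srebf2, 3 times in that of Mylip and in 1 of those of Insig2, and once in 2 of those of Srebf1) and in 37.4% of all promoters. The E-box, to which SREBP1 can also bind, was in 4 of the 12 windows, those of Insig1, Abca1 and Scap, and in 7.15% of all promoters. The windows of Scap overlap and hold the same E-box, which is thus counted more than once. The LXR element DR4 (a direct repeat after 4 bases of AGGTCA, where each copy may also read AGTTCA or instead GGGTCA) was in 0 of the 12 windows and in 0.0639% of all promoters. No match says only that these letters are not in these windows. Half-sites of other letters were not searched, so an LXR element spelled otherwise would be missed, also in the stretches printed above. The Abca1 stretch holds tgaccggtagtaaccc, whose reverse complement reads GGGTTA, 4 bases, then CGGTCA. This is a direct repeat after 4 bases in letters outside the search. It was seen by reading, is not capitalised and is not in the count for DR4.

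Insig1 encodes the INSIG protein whose own gene is a target of SREBP, so that it closes a feedback loop. It stood at 242, 256 and 302 CPM in WT 1, 2 and 3 and at 82.4, 115 and 103 CPM in cKO 1, 2 and 3. The groups were far apart, with the highest cKO library below the lowest WT library. The mean went from 266.6 ± 31.5 to 100.2 ± 16.5 CPM (SD, n = 3), a 2.66-fold fall (log2 -1.41 ± 0.14, SE; edgeR adjusted p = 0.000606). Insig1 (GRCm38 chromosome 5, 28071363 to 28078662, plus strand) was called lower in all 15 other fits, from -1.28 to -1.72.

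Stard4, a small soluble protein that carries cholesterol between membranes, stood at 37.8, 34.1 and 25.5 CPM in WT 1, 2 and 3 and at 10.5, 16.9 and 17.3 CPM in the cKO libraries. WT 3 was the lowest WT library and cKO 1 the lowest of all, and the groups did not overlap. The gene (chromosome 18, 33199355 to 33213862, minus strand) fell 2.18-fold (log2 -1.13 ± 0.21, n = 3 per group, edgeR adjusted p = 0.0111). It was called in 14 of 15 other fits, and not with the muscle covariate described below (-1.29, edgeR adjusted p = 0.317).

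Srebf2, whose product drives the genes of cholesterol synthesis and also its own gene, stood at 219, 207 and 176 CPM in WT 1, 2 and 3 and at 109, 162 and 132 CPM in cKO 1, 2 and 3. Its highest cKO library, cKO 2, lay close under the lowest WT library, WT 3. The gene (chromosome 15, 82147181 to 82205379, plus strand) fell 1.49-fold (log2 -0.58 ± 0.15, n = 3 per group, edgeR adjusted p = 0.0386). This call was lost without cKO 1, cKO 3, WT 1 or WT 2 (edgeR adjusted p = 0.0813, 0.136, 0.0849 and 0.108), and over the 15 other fits the adjusted p ranged from 0.00157 to 0.398. Mir33, the microRNA gene inside Srebf2, was listed at 0 counts in all 6 libraries.

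Srebf1 serves fatty acid synthesis and is a target of both SREBP and LXR. It stood at 77.2, 71.5 and 78.9 CPM in WT 1, 2 and 3 and at 73.2, 89.9 and 78.5 CPM in cKO 1, 2 and 3. The groups overlapped, with cKO 2 above the other 5 libraries, and the difference did not pass (log2 0.09 ± 0.10, edgeR adjusted p = 0.663). Its sign turned without cKO 2 (-0.0017) and with the muscle level described below as a covariate (-0.19). The counts of Srebf1 (chromosome 11, 60199089 to 60222581, minus strand) are summed over 12 annotated transcripts, so the forms SREBP1a and SREBP1c, which start at different exons, were not separated. Rai1 overlaps Srebf1 on the opposite strand, and without a stated strand setting reads of the overlap cannot be assigned to either.

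Scap, the escort itself, stood at 68.7, 69.5 and 65.8 CPM in WT 1, 2 and 3 and at 55.7, 68.6 and 59.1 CPM in the cKO libraries. Only cKO 2 reached the WT range, and the gene did not pass (log2 -0.15 ± 0.10, edgeR adjusted p = 0.377; chromosome 9, 110333288 to 110384950, plus strand). Insig2, the second INSIG gene, which is not raised by SREBP, stood at 23.7, 24.4 and 28.7 CPM in WT and at 22.1, 21.0 and 25.2 CPM in cKO 1, 2 and 3. Here the library numbered 3 was the highest of each group, and the overlapping groups differed by -0.17 ± 0.12 on the log2 scale (edgeR adjusted p = 0.46; chromosome 1, 121304353 to 121332589, minus strand).

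Mylip, a ubiquitin ligase that sends lipoprotein receptors to degradation and is raised by LXR, stood at 24.1, 25.4 and 27.0 CPM in WT 1, 2 and 3 and at 29.4, 33.5 and 34.9 CPM in cKO 1, 2 and 3. Every cKO library lay above every WT library, yet the change (log2 0.35 ± 0.11) did not pass the test over all genes (edgeR adjusted p = 0.0695; chromosome 13, 45389742 to 45412022, plus strand). Mylip was called higher with total counts, with upper-quartile factors, by DESeq2 and without cKO 1 (adjusted p = 0.022, 0.0488, 0.0399 and 0.0487), and over the 15 other fits the adjusted p ranged from 0.022 to 0.772.

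Abca1, the pump that loads cholesterol onto lipid-poor apolipoprotein, stood at 52.5, 48.6 and 94.0 CPM in WT 1, 2 and 3 and at 67.1, 72.1 and 82.9 CPM in cKO 1, 2 and 3. WT 3 was the highest of all 6 libraries while WT 1 and WT 2 were the lowest, so the groups overlapped and the difference did not pass (log2 0.19 ± 0.23, edgeR adjusted p = 0.687; chromosome 4, 53030787 to 53159895, minus strand). Without WT 3, Abca1 was called higher in cKO (log2 0.52 ± 0.11, edgeR adjusted p = 0.0132). In that fit 8 of 8 adipocyte, 6 of 10 macrophage and 3 of 4 endothelial markers were called higher too, and their part in the value of Abca1 was not tested. With the muscle covariate its sign turned (-0.39, edgeR adjusted p = 0.817).

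Abcg1, which passes cholesterol on to mature lipoprotein particles, stood at 9.85, 6.70 and 12.4 CPM in WT 1, 2 and 3 and at 4.92, 7.01 and 6.38 CPM in cKO 1, 2 and 3. Its values pointed the other way from those of Abca1 and Mylip (log2 -0.66 ± 0.24, n = 3 per group), with WT 2 below cKO 2, and it did not pass (edgeR adjusted p = 0.128; chromosome 17, 31057675 to 31117988, plus strand). In no fit was it called, and the adjusted p ranged from 0.0512 without WT 2 to 0.289 without cKO 1. With the muscle covariate the log2 fold change was -1.58.

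Ratios of 2 genes counted in the same library do not depend on how libraries are scaled. Insig1 had 10.2, 10.5 and 10.5 reads for each read of Insig2 in WT 1, 2 and 3, but 3.72, 5.47 and 4.10 in cKO 1, 2 and 3. The balance of the INSIG genes thus differed between all libraries of the groups, and the 3 WT libraries lay close together. For each read of Srebf1 there were 2.84, 2.90 and 2.23 reads of Srebf2 in WT and 1.49, 1.81 and 1.68 in cKO. Set against an LXR-driven gene, Insig1 had 10.03, 10.1 and 11.2 reads per read of Mylip in WT and 2.81, 3.43 and 2.96 in cKO. Within the LXR-driven genes, Abca1 had 5.33, 7.25 and 7.58 reads per read of Abcg1 in WT and 13.7, 10.3 and 13.01 in cKO. Of 8 such ratios computed, all separated the groups, each with an exact two-sided permutation p of 0.1 (0.1 adjusted over the 8), the smallest that 3 against 3 allows. Most of them set Insig1, Stard4 or Srebf2, already called lower, over a gene that was not called, and the others share Abcg1. The ratios are thus not independent of each other or of the levels above. Of all single genes tested, 31.1% separated the groups. The share among all pairs of genes was not computed, so the count of 8 has no background to be read against.

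**Figure D2:**
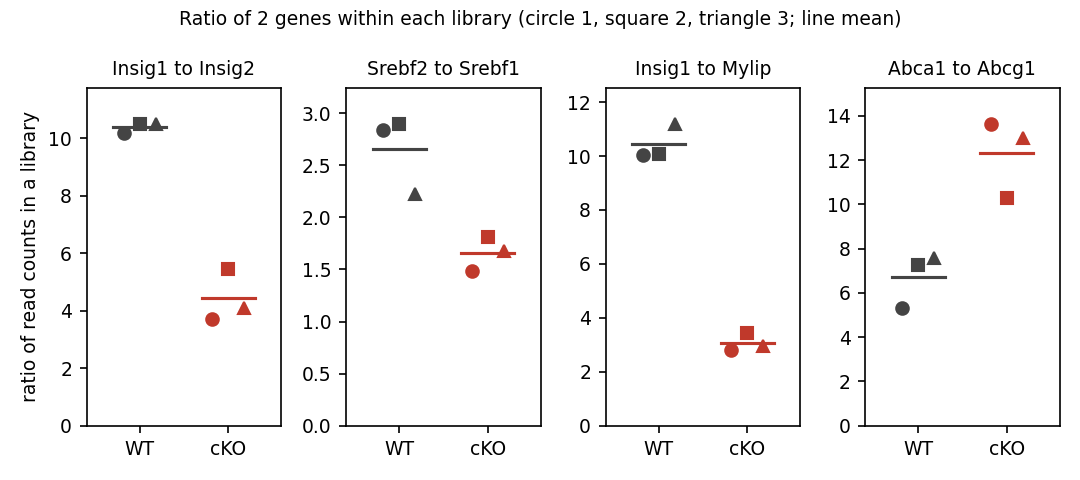
Reads of the first gene per read of the second in every library, on linear axes from 0; circles, squares and triangles are libraries 1, 2 and 3 and lines are means. The ratios of Insig1 to Insig2, Srebf2 to Srebf1 and Insig1 to Mylip are lower, and that of Abca1 to Abcg1 is higher, in each cKO library than in each WT library.

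As a description of both programmes, the mean log2 CPM of the 3 SREBP-driven genes was 6.98, 6.93 and 6.79 in WT 1, 2 and 3 and 5.51, 6.09 and 5.95 in cKO 1, 2 and 3. That of the 3 LXR-driven genes was 4.54, 4.34 and 4.98 in WT and 4.42, 4.69 and 4.73 in cKO. The LXR-driven mean averages genes that pointed opposite ways, with log2 fold changes of 0.35 for Mylip, 0.19 for Abca1 and -0.66 for Abcg1. The SREBP-driven means stood apart between the groups and the LXR-driven means overlapped, with WT 3 the highest of the latter. WT 3 was also the highest WT library for the markers of adipocytes (447 summed CPM against 98 and 100.6), macrophages, fibroblasts, endothelium and perineurium, and also for those of myelinating Schwann cells (113300 against 79870 and 81010) and of the Schwann lineage (3248 against 2669 and 2880). Their part in the values of WT 3 was not tested.

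Per kilobase of exon, in RPKM over the union of annotated exons, Insig1 had the highest level of the 9 genes in WT, at 86.2 ± 10.2 RPKM. Srebf2 followed at 27.95 ± 3.13, Srebf1 at 13.5 ± 0.688 and Scap at 9.13 ± 0.257 RPKM. The ranges of Insig1, Srebf2 and Srebf1 did not touch those of their neighbours. Mylip (7.89 ± 0.443 RPKM), Insig2 (7.38 ± 0.782) and Abca1 (6.28 ± 2.43) each overlapped the next in the order, down to Stard4 (5.82 ± 1.13), and Abca1 also overlapped Scap. Abcg1 was the lowest, at 1.32 ± 0.391 RPKM. In cKO the level of Insig1 was 32.4 ± 5.34 RPKM, still the highest, and Srebf2 (18.7 ± 3.75 RPKM) now overlapped Srebf1 (14.3 ± 1.51 RPKM). Mylip (10.1 ± 0.89 RPKM) stood above Scap (8.21 ± 0.9 RPKM), with overlapping ranges and in the reverse order by the longest transcript (10.64 against 14.46 RPKM), and Stard4 was at 2.67 ± 0.684 RPKM.

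Enzymes that SREBP drives fell with Insig1, Stard4 and Srebf2. Of 20 cholesterol synthesis enzymes, 20 were lower and 0 higher (edgeR), with a median log2 fold change of -1.67 against 0.02 over all genes tested. Tm7sf2, a sterol reductase, fell 4.82-fold and Mvd, which makes isopentenyl diphosphate, 3.17-fold. Ebp, the sterol isomerase, had the smallest fall (log2 -0.58), and lost its call without cKO 2 or cKO 3 (edgeR adjusted p = 0.103 and 0.112), which left 19 of the 20 lower in each. Of 12 fatty acid synthesis enzymes, 9 were lower and 0 higher (median -1.03). Acss2, an acetate-activating enzyme, fell 3.70-fold, the desaturases Scd1 and Fads1 3.03-fold and 2.12-fold, and Acly 1.96-fold. The other 3, Elovl5 (log2 0.28 ± 0.09), Me1 (-0.32 ± 0.11) and Gpam (0.01 ± 0.27), did not pass.

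**Figure D3:**
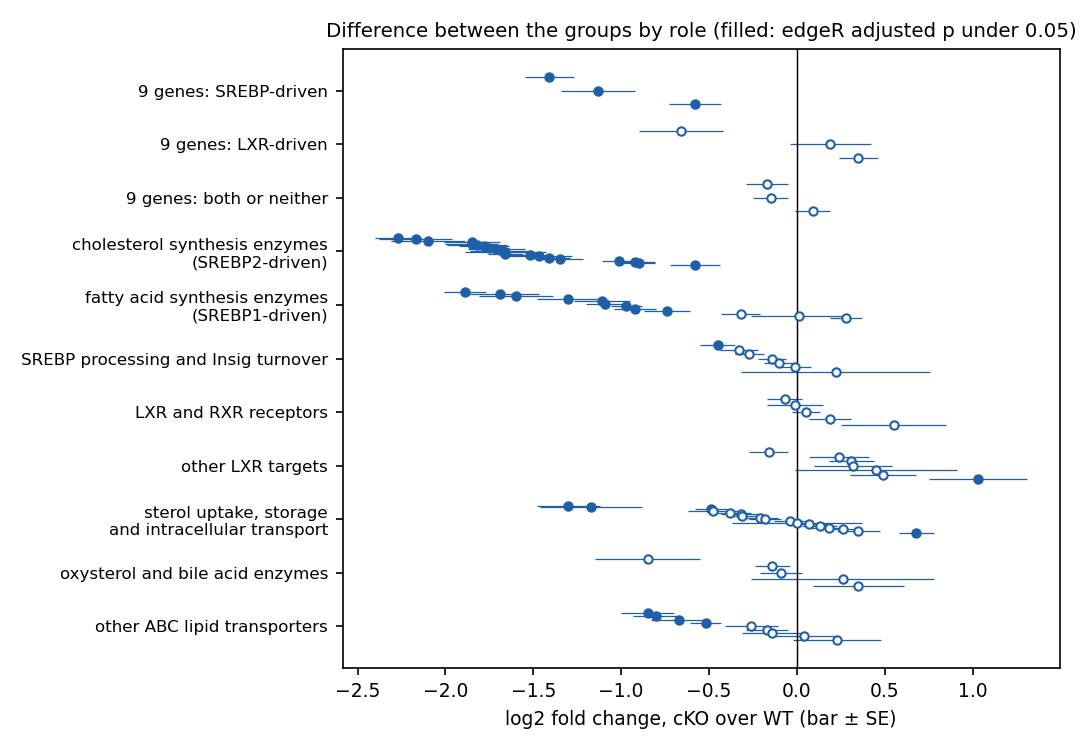
Log2 fold change, cKO over WT, of each of the 9 genes by role and of each gene of the 8 pathway lists, with bars of ± SE from edgeR; filled points have an adjusted p under 0.05. All points of cholesterol synthesis are filled and below 0, whereas the LXR-driven genes and the receptors have open points near or on both sides of 0.

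The machinery that handles SREBP after its synthesis stayed closer to 0. Of 7 genes of SREBP processing and INSIG turnover, 1 fell and 0 rose (median -0.14). Erlin2, which helps to degrade ubiquitinated proteins of the endoplasmic reticulum, fell 1.37-fold, from 73.4 ± 2.09 to 53.7 ± 5.64 CPM (edgeR adjusted p = 0.0175), a call lost without cKO 2 or WT 2 (edgeR adjusted p = 0.0552 and 0.0682). The proteases that release SREBP did not pass, Mbtps1 at -0.01 ± 0.09 and Mbtps2 at -0.33 ± 0.11 (edgeR adjusted p = 0.956 and 0.0959).

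The receptors of the LXR programme were present in every library. Nr1h2, encoding LXR beta, averaged 62.3 ± 1.62 CPM in WT against 64.6 ± 1.64 CPM in cKO, and Nr1h3, encoding LXR alpha, averaged 3.40 ± 1.22 against 4.97 ± 1.17 CPM (SD, n = 3). Of 5 LXR and RXR genes 0 passed in edgeR, limma-voom or DESeq2, with 0 at an unadjusted p under 0.05 in edgeR. Of 7 other LXR targets, 1 rose and 0 fell (median 0.32). It was Apoc1, an apolipoprotein, at 1.41, 1.28 and 1.94 CPM in WT and 3.08, 2.73 and 3.61 CPM in cKO 1, 2 and 3 (log2 1.03 ± 0.28, edgeR adjusted p = 0.0462), a call lost without each library except WT 3 (edgeR adjusted p from 0.0788 to 0.182). Without WT 3 the count was 4 higher, among them Apoc1, Smpdl3a, a phosphodiesterase (log2 0.69 ± 0.16), and Lpl, lipoprotein lipase (1.37 ± 0.13), in the fit that also called the 8 adipocyte and 6 of the macrophage markers higher. Lpl was named after its values were seen; it stood at 265 CPM in WT 3 against 65.3 and 75.7 CPM in WT 1 and WT 2.

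Among 17 genes of sterol uptake, storage and intracellular transport, 3 fell and 1 rose (median -0.18). Lipa, the lysosomal acid lipase that frees cholesterol from its esters, fell 1.40-fold, from 86.7 ± 4.21 to 61.9 ± 5.47 CPM (edgeR adjusted p = 0.0113). Stard5, which shares the sterol-binding START domain with Stard4, went the other way: 64.5, 65.2 and 57.7 CPM in WT 1, 2 and 3 and 111.7, 91.2 and 96.4 CPM in the cKO libraries, a rise (log2 0.68 ± 0.10, edgeR adjusted p = 0.00408). Without WT 3, 5 genes of this list were lower. With WT 1 left out, 2 genes were higher. Of 5 oxysterol and bile acid enzymes 0 passed in edgeR, limma-voom or DESeq2, and 1, Cyp46a1 (log2 -0.85 ± 0.30), had an unadjusted p under 0.05 in edgeR. Among 9 other ABC lipid transporters 4 fell and 0 rose (median -0.26): Abca8b fell 1.74-fold, Abca8a 1.44-fold, Abca2 1.80-fold and Abca5 1.59-fold. Without cKO 3 only 2 of these were called, Abca2 and Abca5 having lost their calls (edgeR adjusted p = 0.0513 and 0.0832). Abca5 also lost its call without cKO 1, cKO 2 or WT 1 (edgeR adjusted p = 0.0716, 0.0697 and 0.0521).

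By the likeness of log2 CPM over the 6 libraries (Pearson, among 10270 genes whose mean log2 CPM reached 3), the genes reported here that were most like Insig1 were Rap1gds1 (0.9995) and Secisbp2l (0.9993), both of them lower in cKO (log2 -0.69 and -1.78). Srebf1 was most like Adgra2 (0.9893), Inpp5a (0.9799) and Tef (0.9783). Abca1 was most like Il34 (0.9918), Mmp2 (0.9901) and Pid1 (0.9894), all of them, like Abca1, not called. These values describe 6 libraries that fall into 2 groups and share their depth and scaling, and carry no test.

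Markers of cell types moved with the groups beside these genes. All 7 markers of myelinating Schwann cells fell, Mag 3.06-fold and Mal 3.01-fold among them, from a summed level of 79870 to 113300 CPM in WT to 19470 to 32280 CPM in cKO (median log2 -1.77). Of 5 markers of the Schwann lineage, S100b (log2 0.27 ± 0.19) included, 0 passed in edgeR, limma-voom or DESeq2 and 0 had an unadjusted p under 0.05 in edgeR, while the summed CPM stood just apart (2669 to 3248 in WT, 2575 to 2658 in cKO). Of 10 skeletal muscle markers 9 rose, Tnnt3 5.22-fold and Pygm 4.33-fold among them, from 388.6 to 1487 summed CPM in WT to 3873 to 8678 in cKO. With the mean log2 CPM of that list as a covariate, Insig1 was still called lower (log2 -1.72 ± 0.26, edgeR adjusted p = 0.0269), Stard4 (-1.29 ± 0.43) and Srebf2 (-0.80 ± 0.30) were not (edgeR adjusted p = 0.317 and 0.398), and 15 of 20 cholesterol enzymes and 6 of 12 fatty acid enzymes were. That covariate did not overlap between the groups (4.61 to 6.56 in WT, 7.85 to 9.17 in cKO), so this fit cannot tell muscle from group. Without it, the SE of Stard4 and Srebf2 was 0.21 and 0.15. Of 10 macrophage, 8 adipocyte, 5 fibroblast and 4 endothelial markers 0 passed in edgeR, limma-voom or DESeq2, and 3, 0, 1 and 2 of them had an unadjusted p under 0.05 in edgeR. Without WT 3, edgeR called 6, 8, 1 and 3 of them higher, and the median log2 fold change of the adipocyte markers went from 0.67 to 2.73. That fit also called 1 Schwann lineage marker, S100b, higher and no perineurial marker. The ranges of summed CPM overlapped for macrophages (459.8 to 633.9 in WT, 581.7 to 610.4 in cKO) and adipocytes (98 to 447 and 320 to 450.3). The same held for fibroblasts (6978 to 8659 and 7972 to 8480) and endothelium (201.2 to 313 and 282.8 to 339.6). Of 4 perineurial markers 1 was lower, Itgb4 (log2 -0.57 ± 0.15; list 202.6 to 293.8 summed CPM in WT, 209.3 to 242.6 in cKO), and of 3 tested lymphocyte markers 2 were higher, Cd3g among them, at summed levels of 0.403 to 0.9 CPM in WT and 3.33 to 7.91 CPM in cKO. No marker of these lists was at 0 in all 6 libraries. The part of Schwann cells and lymphocytes in the values of the 9 genes was not tested.

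**Figure D4:**
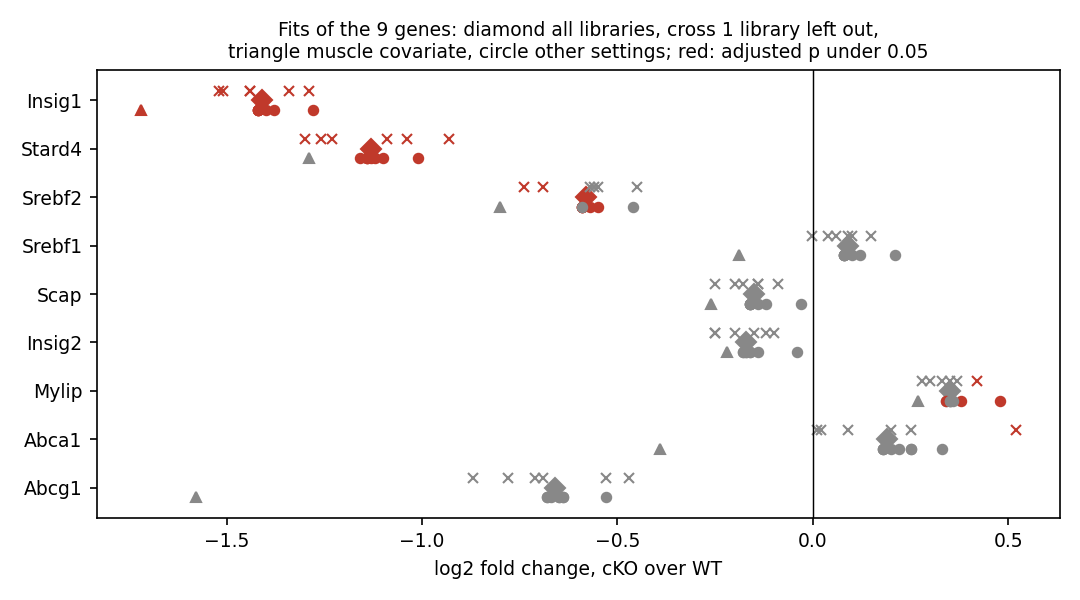
Log2 fold change of each gene, cKO over WT, in 16 fits: a diamond for all libraries, crosses with 1 library left out, a triangle with the muscle covariate and circles for the other settings; red points have an adjusted p under 0.05. Insig1 is red in every fit and Stard4 in all but 1, whereas Srebf2 loses its call in 7 and Abca1 is called only without WT 3.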

How the data were processed

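Each of 6 files holds the reads of 1 sciatic nerve library. The authors deposited raw counts per gene symbol without normalization. The submitters' processing notes name TopHat2 2.0.13, HTSeq and mm10, but no annotation or strand setting. HTSeq's closing lines were left out of library sizes (reads given to no gene, 12.07% to 14.26%; shared between genes, 1.64% to 2.82%). A count of 3, taken as the limit for a gene at 0, was 0.0638 to 0.122 CPM, which covers counting error only.

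Genes were kept by filterByExpr and tested with edgeR 4.0.16 in R 4.3.3 (TMM factors, quasi-likelihood F test, group as the only term, all 6 libraries, Benjamini-Hochberg over 14789 genes, threshold 0.05). SE was taken as the size of a log2 fold change over the root of its F value. Log2 CPM has a prior count of 2. Positions and exon lengths are those of GENCODE M21 (GRCm38, the assembly of mm10), found for 23376 of 24421 symbols (95.7%). DESeq2 1.42.0 and limma-voom (limma 3.58.1) were alternatives, beside other scalings and filters, a replicate block, a muscle covariate and leaving out each library. The pipeline was tested on simulated data. It called 14 of 66 genes changed by a log2 size of 0.5, 39 of 66 changed by 1 and 61 of 65 changed by 2. Far fewer genes were changed there than the 1618 called in the real data, so these shares need not hold for the real test. Of 14459 unchanged genes the pipeline called 17. A gene that did not pass may thus still differ by a small amount. Beside the 14, 39 and 61 changed genes called, those 17 were a larger share of the calls than the threshold of 0.05 aims at. Calls close to the threshold are thus less sure than their adjusted p says.

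The 9 genes, the 8 pathway lists and the 9 lists of cell type markers were chosen with earlier results of these data known. Named were the 9 genes, the LXR and SREBP protease genes, up to 4 genes a pathway list and up to 2 a marker list in order of p, and the 3 genes most like Insig1, Srebf1 and Abca1. Ebp, Elovl5, Me1, Gpam, Lpl and Mir33 were named outside that order. Some genes that the rules gave are not reported here.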

Additional observations from a re-analysis of the deposited data

How the results depend on the processing

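Over 15 other fits of each gene, Insig1, Scap, Insig2 and Abcg1 kept their sign and their side of the threshold. Leaving out 1 library gave log2 fold changes of -1.52 to -1.29 for Insig1, -1.3 to -0.93 for Stard4, -0.74 to -0.45 for Srebf2, -0.0017 to 0.15 for Srebf1, 0.28 to 0.42 for Mylip and 0.01 to 0.52 for Abca1. Srebf2 was not called with total counts (-0.46), the muscle covariate (-0.80) or the replicate block (-0.59). With the muscle covariate, which separates the groups by itself, Stard4 was not called (-1.29), and Srebf1 (-0.19) and Abca1 (-0.39) changed sign. Mylip passed, higher, under DESeq2 (0.34), total counts (0.48) and upper-quartile factors (0.38). The cause of these changes was not tested.

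Of the 9 genes, 1 was called lower with the muscle covariate, and 1 was called higher under each of DESeq2, total counts and upper-quartile factors. Leaving out 1 library gave 2 to 3 lower and 0 to 1 higher. Over all genes, 912 were lower and 706 higher. Total counts, under which the median over all genes moved from 0.02 to 0.15 on the log2 scale, gave 606 lower and 1273 higher, the muscle covariate 127 and 20, and the replicate block 461 higher. Leaving out 1 library gave 459 to 1120 lower and 276 to 1075 higher.

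The lists moved as follows. Total counts called 1 fatty acid enzyme higher, 0 of the SREBP processing genes lower and 2 genes of sterol uptake higher. DESeq2 called 2 of the SREBP processing genes and 6 of sterol uptake lower. The muscle covariate called 0 SREBP processing genes lower, 0 other LXR targets higher, 1 gene of sterol uptake lower and 0 higher, and 1 ABC transporter lower. The replicate block called 0 other LXR targets higher. Leaving out 1 library gave 0 to 1 SREBP processing genes lower, 0 to 4 other LXR targets higher, 2 to 5 genes of sterol uptake lower and 1 to 2 higher, and 2 to 4 ABC transporters lower.

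The labels give same-numbered libraries only a number in common. The correlations of their deviations from the group means were -0.207, -0.122 and 0.072 for numbers 1, 2 and 3. While cKO 1 and cKO 2 correlated best with another number (0.181 with WT 2 and 0.222 with WT 1), cKO 3 did so with its own. These values cannot show whether same-numbered libraries shared a day or a litter. By the longest transcript instead of all exons, WT levels were 98.9 for Insig1, 39.5 for Srebf2, 17.6 for Srebf1, 16.1 for Scap and 9.497 RPKM for Insig2, which then stood above Mylip, as Stard4 did above Abca1.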
